A study of Mus musculus with 10 samples.

Results

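The 10 genes of Wnt signalling described here were chosen by name: the ligand genes Wnt4, Wnt5a, Wnt7b and Wnt10a, the receptor genes Lgr4 and Lgr5, the ubiquitin ligase gene Znrf3, the feedback gene Axin2, and the transcription factor genes Tcf7 and Lef1. Of these 10 genes, 9 had a row annotated with exactly 1 gene symbol, out of 30142 such genes on the array, and Tcf7 is not analysed here. Each of the 9 had a single row. Arrays were run on sorted luminal cells of the prostate of male mice that carried a Hoxb13-rtTA transgene and TetO-H2BGFP, in which doxycycline turns on green fluorescent histone in Hoxb13-expressing cells. All groups shared both transgenes and 2 mg/ml doxycycline in the drinking water for 1 week before collection. The intact group (n = 3) was untreated, and its age is not given separately. The castrated group (n = 3) lost the testes at 12 weeks of age and was left to regress for 6 weeks. The regenerated group (n = 4) was castrated at the same age, regressed for 6 weeks and then carried testosterone implants for 4 weeks. Sorting took GFP-positive, CD24-positive cells with intermediate CD49f and left out cells bearing CD45, F4/80 or CD11b. Samples are labelled as biological replicates, without the number of animals behind each array. The p-values therefore reflect only the variation among these arrays, which may be partly technical.

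Wnt proteins are secreted lipid-modified ligands that bind Frizzled receptors together with Lrp5 or Lrp6. In the canonical branch this stops the destruction of beta-catenin, which then enters the nucleus and acts with Tcf and Lef proteins on target genes. Axin2 and Znrf3 are targets that feed back on the pathway: Axin2 is a scaffold of the destruction complex, and Znrf3 removes Frizzled receptors from the cell surface. R-spondins, bound by Lgr4, Lgr5 or Lgr6, block Znrf3 and so raise the response to Wnt. In the prostate the pathway is known from bud formation in the embryo, from stem and progenitor cells of the adult gland and from castration-resistant cancer.

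Values are log2 RMA intensities, that is, background-corrected and quantile-normalised array signals. They are set beside 23 background control rows of the same array, whose 95th percentile was 4.27 to 4.88 in intact, 4.58 to 4.95 in castrated and 4.09 to 4.998 in regenerated arrays. A gene is called changed at a limma p-value under 0.05 after Benjamini-Hochberg adjustment over all 30142 genes. The luminal label was borne out by the keratins Krt8 and Krt18, which had means of 15.15 or more in every group, and both were themselves called higher in castrated arrays, by 1.37 and 1.41 log2. Hoxb13, which drives the reporter of the sort, was 10.39 ± 0.17 (SD, n = 3) in intact, 7.74 ± 0.20 (n = 3) in castrated and 9.47 ± 0.86 (n = 4) in regenerated arrays. Regenerated replicate 4 stood apart on the first principal component, at 3.03, against -31.0 to -23.2 for the other regenerated arrays, -47.6 to -40.5 for intact and 64.1 to 75.5 for castrated arrays. Array values cannot tell fewer cells of a type from less RNA per cell.

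The promoter table used here, made from RefSeq (GRCm38.p6), held 4 of the 9 measured members. For Axin2 and Wnt4, which both rose after castration, the 250 bases before the start are shown. Both are in lower case throughout, because capitals were kept for matches on either strand to CTTTGA, the core bound by Tcf and Lef proteins, and neither window held one.
Axin2, chr11:108920099-108920348, plus strand: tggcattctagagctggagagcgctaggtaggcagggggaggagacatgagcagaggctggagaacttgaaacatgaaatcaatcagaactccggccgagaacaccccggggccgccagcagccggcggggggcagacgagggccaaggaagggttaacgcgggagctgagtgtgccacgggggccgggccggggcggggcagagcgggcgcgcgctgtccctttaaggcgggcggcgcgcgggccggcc
Wnt4, chr4:137277385-137277634, plus strand: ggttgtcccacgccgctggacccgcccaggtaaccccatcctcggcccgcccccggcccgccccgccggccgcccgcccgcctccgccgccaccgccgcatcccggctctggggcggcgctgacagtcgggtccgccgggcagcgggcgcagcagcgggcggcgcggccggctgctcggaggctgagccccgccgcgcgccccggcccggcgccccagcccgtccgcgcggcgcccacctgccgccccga
In the Wnt4 window 85.2% of the bases were G or C, against 69.2% for Axin2 and a median of 52.4% over 32851 windows. Of those windows, 13.8% held CTTTGA. A window without a match says nothing about binding of the factor here or elsewhere in the gene.

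The first comparison asks how these genes differed after 6 weeks without testicular androgen. Axin2, Znrf3, Wnt4 and Lgr5 were higher in castrated than in intact arrays, and none of the 9 was called lower. The 4 of 9 members called stand against a background of 8.01% of all genes called, 4.82% higher and 3.19% lower. The members were chosen with earlier results of these data known, so the count is only a description. Over all genes 1452 were higher and 962 lower, but the split was 1095 and 1136 after a second quantile normalisation and 1085 and 1185 after centring each array on its median. The median difference was 0.06 log2 over the members and 0.04 over all genes. In the same 4 members every castrated array lay above every intact array, which was so for 17.4% of all genes. The reverse order held for 11.5% and either order for 28.9% of all genes, and no member showed the reverse order.

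**Figure D1:**
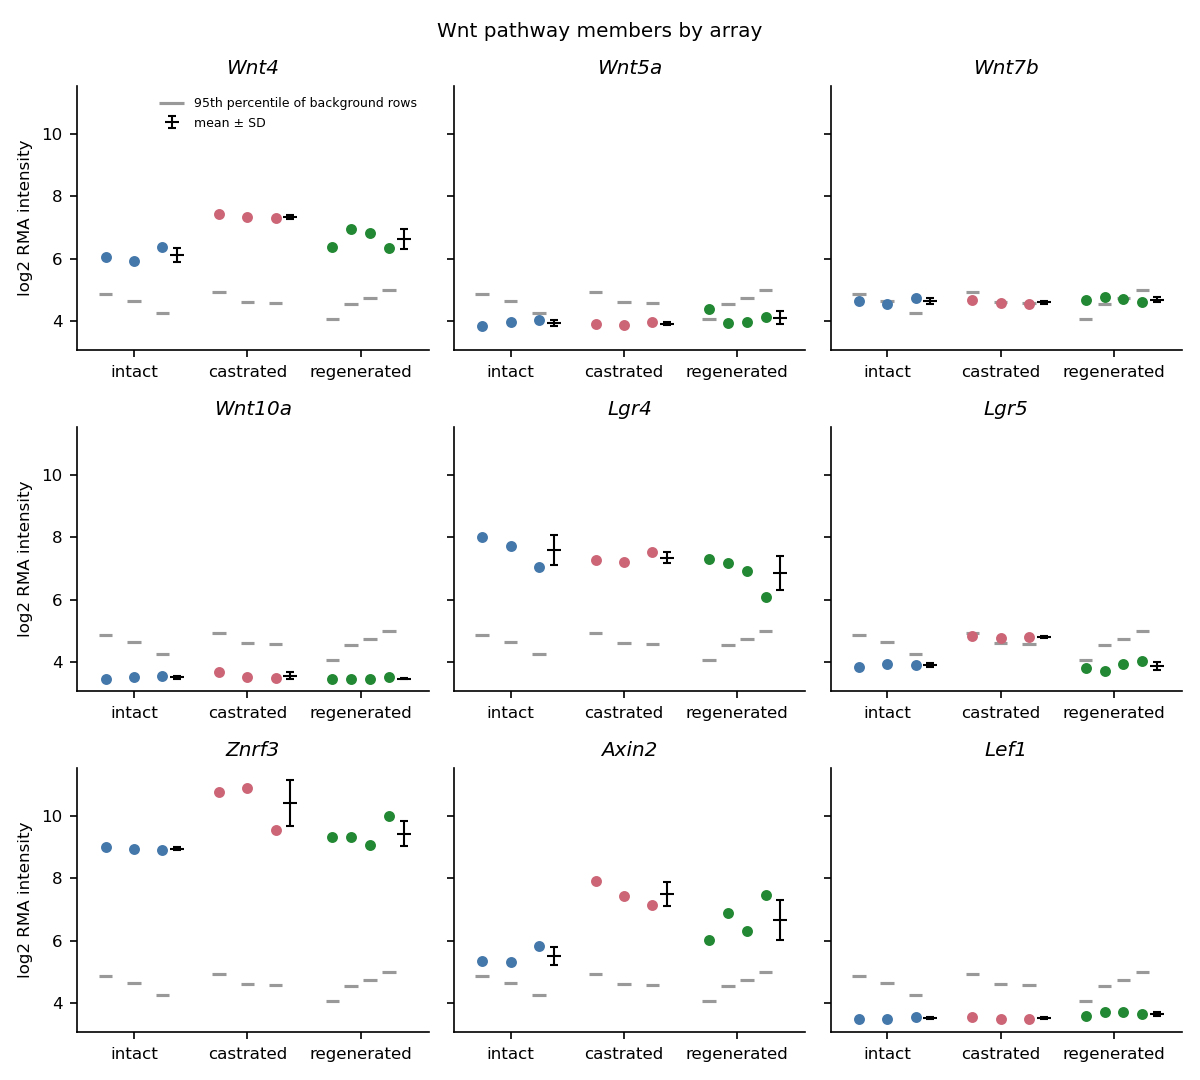
Log2 RMA intensity (vertical axis) of each measured member in each array, with intact, castrated and regenerated arrays side by side. Coloured points are arrays, black bars are the group mean ± SD, and grey ticks are the 95th percentile of the 23 background rows in that array. Castrated points of Wnt4, Lgr5, Znrf3 and Axin2 lie above the intact points, and Wnt10a and Lef1 lie under the grey ticks in every array.

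Among the ligands, Wnt4 carried the change. Wnt4, a ligand best known from kidney, ovary and mammary gland development, was 6.07, 5.94 and 6.37 in the 3 intact arrays. It was 7.42, 7.32 and 7.30 in the castrated arrays and 6.39, 6.97, 6.83 and 6.33 in the regenerated arrays. All 10 values lay above the highest background row of their array, and the regenerated arrays lay between the other groups, overlapping the intact ones. Castrated arrays were higher by 1.22 ± 0.20 log2 (SE), a 2.33-fold difference (95% interval 1.70 to 3.19; limma adjusted p = 0.00535). With any single array left out, the adjusted p stayed between 0.00306 and 0.031.

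The other 3 ligands were close to background. Wnt5a, which acts mainly through beta-catenin-independent routes, ranged from 3.84 to 4.04 in intact, 3.90 to 3.98 in castrated and 3.93 to 4.40 in regenerated arrays. It passed the 95th percentile of the background rows in 1 array, regenerated replicate 1. Wnt7b, a ligand of epithelia such as lung and kidney collecting duct, ranged from 4.54 to 4.75, 4.57 to 4.67 and 4.62 to 4.77 in the same order, and passed that limit in 3 of 10 arrays. Wnt10a, a ligand known from tooth and skin appendages, ran from 3.47 to 3.69 and passed it in none. Their castrated minus intact differences were -0.02, -0.04 and 0.06 log2, with 95% intervals of -0.28 to 0.23, -0.25 to 0.16 and -0.09 to 0.20. A real change in transcripts at this level can be compressed by the array.

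Of the receptors for R-spondins, Lgr4 lay above background in all 10 arrays and Lgr5 in 2. Lgr4, the broadly expressed receptor, was 8.01, 7.72 and 7.05 in intact, 7.26, 7.22 and 7.54 in castrated and 7.31, 7.17, 6.92 and 6.08 in regenerated arrays. The groups overlapped, and the lowest value came from regenerated replicate 4. Castrated arrays differed from intact by -0.25 ± 0.33 log2, with a 95% interval of -0.99 to 0.49 (limma adjusted p = 0.755). Lgr5, a marker of Wnt-responsive stem cells in the intestine and other epithelia, was 3.85, 3.96 and 3.92 in intact arrays. It was 4.85, 4.79 and 4.796 in castrated and 3.83, 3.72, 3.94 and 4.05 in regenerated arrays. The castrated values stood apart from all others with a narrow spread, yet they lay about at the 95th percentile of the background rows, above it in 2 of 3 castrated arrays and in none of the other 7. Their difference from intact was 0.90 ± 0.09 log2, 1.87-fold (95% interval 1.62 to 2.15; limma adjusted p = 0.000393), and with single arrays left out the adjusted p ran from 0.000176 to 0.00388. The size of this fold rests on values inside the range of background signal.

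Znrf3, the ligase that R-spondins block, lay above background in every array. It was 9.01, 8.93 and 8.92 in intact arrays, 10.76, 10.90 and 9.55 in castrated and 9.32, 9.33, 9.06 and 9.98 in regenerated arrays. Intact arrays agreed within 0.1 log2, whereas castrated replicate 3 was well under the other castrated arrays. The difference between castrated and intact was 1.45 ± 0.36 log2, 2.73-fold (95% interval 1.57 to 4.76; limma adjusted p = 0.0354). This call was the least stable of the 4. It ended without intact replicate 1 (limma adjusted p = 0.107), 2 (0.109) or 3 (0.0832), without castrated replicate 1 (0.106) or 2 (0.123), and without regenerated replicate 2 (0.0563). Without castrated replicate 3 it stood, at 1.88 log2 (limma adjusted p = 0.0071).

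Axin2 showed the largest difference of the members. It was 5.35, 5.32 and 5.84 in intact arrays, 7.91, 7.45 and 7.15 in castrated and 6.03, 6.89, 6.30 and 7.46 in regenerated arrays. Every castrated and regenerated array was above every intact array, and regenerated replicate 4 reached into the castrated range. Castrated arrays were higher by 2.00 ± 0.35 log2, 4.00-fold (95% interval 2.34 to 6.84; limma adjusted p = 0.00672). The adjusted p stayed between 0.00167 and 0.0369 with any array left out.

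Lef1, the factor that partners beta-catenin in many progenitor cells and in lymphocytes, lay at 3.49 to 3.56 in intact, 3.49 to 3.55 in castrated and 3.58 to 3.72 in regenerated arrays. All of these values were under the 95th percentile of the background rows. The castrated minus intact difference was 0.00029 log2, with a 95% interval of -0.13 to 0.13.

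The second comparison asks how the members differed once testosterone had been replaced. Regenerated mice were also later after castration, and that time cannot be told apart from testosterone. Lgr5 was called lower in regenerated than in castrated arrays, by 0.93 ± 0.09 log2 (-0.93, limma adjusted p = 0.000301), and its 4 regenerated values were all under the castrated ones. This was the only one of 9 members called, where 4.98% of all genes were called, 3.01% lower and 1.97% higher. That split of 593 higher and 907 lower was 712 and 729 after a second quantile normalisation, and 1076 and 1051 without regenerated replicate 4. Wnt4 was lower by 0.72 ± 0.19 log2 (-0.72), with no overlap between the groups, but did not pass (limma adjusted p = 0.0611). Of the 9 members, Lgr5 and Wnt4 showed no overlap downward and Lef1 upward, as did 9.51% and 6.53% of all genes (16% either way). Wnt4 passed with dim genes left out (limma adjusted p = 0.0315) or with a constant prior (0.0461).

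Axin2 and Znrf3 differed from castrated arrays by -0.84 ± 0.33 and -0.98 ± 0.34 log2 and did not pass (limma adjusted p = 0.197 and 0.143), with groups that overlapped. Both values hung on single arrays. Without regenerated replicate 4 the Axin2 difference was -1.10 (limma adjusted p = 0.0408), and without castrated replicate 3 the Znrf3 difference was -1.41 (limma adjusted p = 0.0255). With array weights both passed, at -1.04 and -1.28 log2 (limma adjusted p = 0.0495 and 0.0264). The differences of Lgr4, Wnt5a, Wnt7b, Wnt10a and Lef1 were -0.48, 0.19, 0.09, -0.09 and 0.15 log2 and none passed.

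The third comparison sets regenerated against intact arrays and so asks how close the members came to the never-castrated state. Limma called none of the 9, and it called 0.0365% of all genes, 0.0332% higher and 0.00332% lower. An unadjusted limma p under 0.05 was found for 4 of the 9 members and for 3019 of all 30142 genes. Lgr5 differed by -0.02 log2, with a 95% interval of -0.22 to 0.17. Axin2 was 1.16 ± 0.33 log2 above intact (95% interval 0.44 to 1.89; limma adjusted p = 0.273), with all 4 regenerated arrays above all 3 intact ones. Wnt4 was 0.51 ± 0.19 log2 above (limma adjusted p = 0.399), Lef1 0.15 ± 0.06 above (0.397) and Lgr4 0.72 ± 0.31 under (-0.72; 0.474). Znrf3 was 0.47 ± 0.34 above (0.738), with no overlap between the groups. Axin2, Znrf3 and Lef1 were free of overlap upward, as were 6.42% of all genes, and no member downward, as were 3.23% (9.65% either way).

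Set against the rise after castration, the part no longer present in regenerated arrays was 102.8% for Lgr5, 67.6% for Znrf3, 58.6% for Wnt4 and 41.8% for Axin2. With 1 array left out these shares ran from 96.7% to 108.9%, 59.1% to 80.5%, 50.4% to 67.8% and 31.1% to 54.9%. For Lgr5 the share is computed between values at background and is not precise. Both differences use the same castrated arrays, and differences between the genes were not tested.

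**Figure D2:**
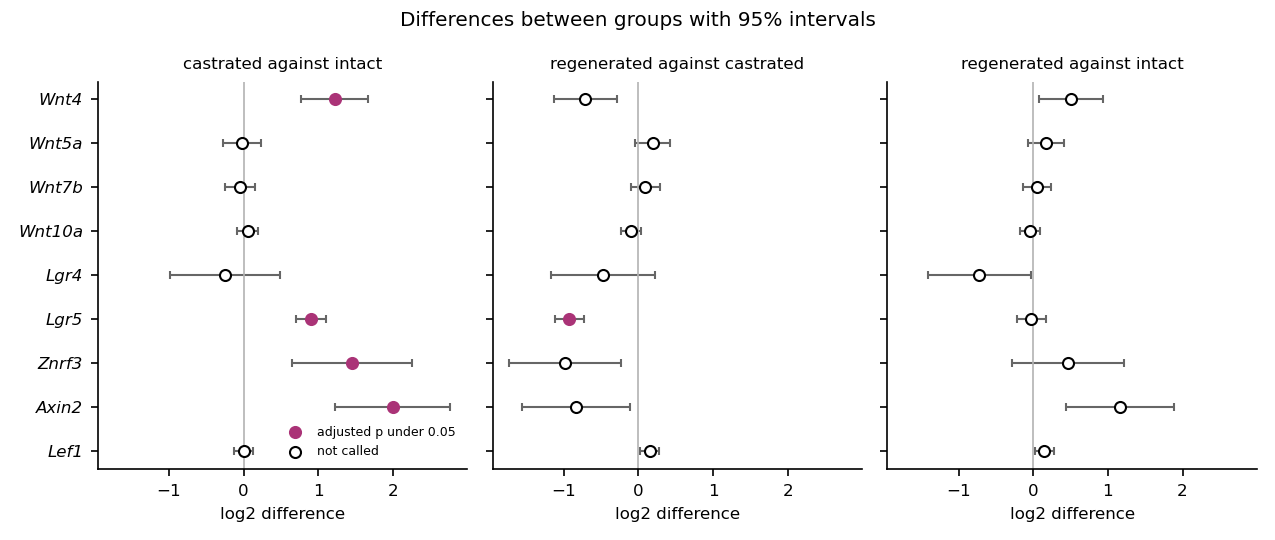
Log2 difference between groups (horizontal axis) for each member in the 3 comparisons, with 95% intervals from limma. Filled points passed an adjusted p of 0.05: Wnt4, Lgr5, Znrf3 and Axin2 after castration, Lgr5 after testosterone, and none between regenerated and intact arrays.

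The rest of the pathway was described from 8 lists by role, which hold 101 measured genes, the members among them. After castration 10 were called higher and 5 lower, with 4.82% and 3.19% of all genes as the background, and the median difference was 0.02 log2 against 0.04 over all genes. Regenerated against castrated arrays gave 1 higher and 3 lower, shares close to the 1.97% and 3.01% of all genes. Regenerated against intact arrays gave none by limma, with 18 of the 101 at an unadjusted p under 0.05, as were 3019 of all 30142 genes.

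Of 19 Wnt ligands, Wnt4 was the only one called in castrated arrays, and the other 18 lay at or under the 95th percentile of the background rows in all 3 of them. In the secretion list Wls, which carries Wnt proteins to the cell surface, was called higher, and Porcn and Notum were not called. Wls was 8.05, 8.17 and 9.24 in intact, 10.29, 10.26 and 10.30 in castrated and 9.22 to 10.36 in regenerated arrays. Intact replicate 3 stood well above the other intact arrays, and the castrated arrays agreed within 0.1 log2. The difference was 1.80 ± 0.38 log2 (limma adjusted p = 0.0167). It lost its call without intact replicate 1 (limma adjusted p = 0.0818) or 2 (0.0748) or castrated replicate 2 (0.0518) or 3 (0.0507).

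Of 16 receptors 1 was called, and it was lower. Fzd6, a Frizzled receptor known from planar cell polarity, was 9.65, 8.53 and 8.28 in intact arrays. It was 7.60, 6.85 and 7.22 in castrated and 7.18 to 7.77 in regenerated arrays, with intact replicate 1 the highest. The difference of -1.60 ± 0.35 log2 (limma adjusted p = 0.02) lost its call without intact replicate 1 (limma adjusted p = 0.0589) or castrated replicate 2 (0.0784) or 3 (0.0588).

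In the R-spondin axis 2 of 8 measured genes, Lgr5 and Znrf3, were called higher and 1 lower. Rspo3, an R-spondin that is made by stroma in many organs, was 6.51, 5.54 and 7.01 in intact, 4.59, 4.56 and 5.14 in castrated and 5.24 to 6.25 in regenerated arrays. It differed by -1.59 ± 0.37 log2 (limma adjusted p = 0.0258) and lost its call without intact replicate 1 (limma adjusted p = 0.102) or 3 (0.0764) or castrated replicate 1 (0.0786) or 2 (0.0896). The stromal proteoglycan gene Dcn moved with it, at 12.23 ± 0.73 in the 3 intact, 7.53 ± 1.35 in the 3 castrated and 11.37 ± 0.46 in the 4 regenerated arrays (mean ± SD). Among 12 measured stromal markers Dcn was the only one called, the collagen gene Col1a1 had means of 4.34, 4.35 and 4.34, and 10 of the 12 were at background in all intact arrays, and 10, not all the same ones, in all castrated arrays. The summed level of the stromal list mainly follows Dcn. It was 11.48 to 12.80 log2 in intact, 8.11 to 9.51 in castrated and 11.07 to 11.96 in regenerated arrays. The part of stromal cells in the Rspo3 difference was not tested.

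None of 15 secreted and surface inhibitors was called after castration by limma. An unadjusted limma p under 0.05 was found for 1 of them and for 6236 of all 30142 genes. Sfrp1, which binds Wnt proteins outside the cell, differed by -0.72 ± 0.34 log2 (limma adjusted p = 0.267). Tpbg, a membrane protein that dampens the response to Wnt, differed by 0.71 ± 0.24 (limma adjusted p = 0.109). After testosterone Tpbg was called lower, by 0.98 ± 0.23 (-0.98, limma adjusted p = 0.0339), and that call ended without intact replicate 1 or 2, castrated replicate 1 or 3, or regenerated replicate 1 or 2 (limma adjusted p from 0.0597 to 0.108). It also ended when only those 2 groups were fitted (0.0935), after a second quantile normalisation (0.0673) and with array weights (0.0529).

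In the cytoplasmic core 1 of 18 measured genes, Axin2, was higher and 1 lower, while Ctnnb1, the gene of beta-catenin, is not analysed here. Btrc, the ubiquitin ligase subunit that recognises phosphorylated beta-catenin, was 9.38 to 9.72 in intact, 8.38 to 8.71 in castrated and 8.61 to 8.99 in regenerated arrays. It differed by -1.01 ± 0.21 log2 (limma adjusted p = 0.0147), and lost its call without intact replicate 1 (limma adjusted p = 0.0751) or 2 (0.0687) or castrated replicate 3 (0.053).

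Nuclear factors went both ways, with 2 of 14 higher and 2 lower. Tle4, a Groucho-type co-repressor, was 12.07, 11.66 and 11.78 in intact arrays. It was 8.54, 8.56 and 9.02 in castrated and 11.30, 10.67, 10.82 and 9.51 in regenerated arrays. All castrated arrays were below all others, and regenerated replicate 4 was the nearest to them. The fall after castration was -3.13 ± 0.40 log2 (limma adjusted p = 0.00126), and the rise after testosterone was 1.87 ± 0.37 (limma adjusted p = 0.0175). The latter call ended without castrated replicate 1 (limma adjusted p = 0.0599) or 2 (0.0722) or regenerated replicate 2 (0.0547) or 3 (0.0519), and when only those 2 groups were fitted (0.0542). Tcf7l1, which mostly represses Wnt targets, was 7.50, 7.45 and 7.58 in intact, 5.86, 5.42 and 5.504 in castrated and 7.32, 6.70, 6.89 and 5.79 in regenerated arrays. It fell by 1.92 ± 0.32 log2 (-1.92, limma adjusted p = 0.00528). Tle1, another co-repressor of the same family as Tle4, went the other way, from 7.59, 7.71 and 7.67 to 9.71, 9.55 and 9.20, with 8.02 to 9.74 in regenerated arrays. Its rise of 1.83 ± 0.38 log2 (limma adjusted p = 0.0157) lost its call without intact replicate 1 (limma adjusted p = 0.0682) or 2 (0.0547) or castrated replicate 1 (0.0512) or 2 (0.0525). Bcl9, a co-activator of beta-catenin, rose by 0.90 ± 0.21 (limma adjusted p = 0.0257), but without any 1 of the 6 intact and castrated arrays its adjusted p was 0.0552 to 0.105, and after a second quantile normalisation 0.0719.

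Of 15 measured genes that Wnt is known to induce in other tissues, 6 were called higher after castration and none lower, with a median difference of 0.28 log2. Over all genes 4.82% were called higher and 3.19% lower, with a median of 0.04 log2. This list was chosen with earlier results of these data known. The 6 called were the members Axin2, Znrf3 and Lgr5, already counted above, with Cd44, Tnfrsf19 and Sox9, genes that other signals induce as well. Cd44, a hyaluronan receptor, was 5.53, 5.29 and 5.82 in intact, 10.84, 9.46 and 10.14 in castrated and 5.995, 7.16, 6.82 and 8.45 in regenerated arrays. It rose by 4.60 ± 0.54 log2 (limma adjusted p = 0.000836) and fell by 3.04 ± 0.50 after testosterone (-3.04, limma adjusted p = 0.00698). Tnfrsf19, a receptor of the TNF family, was 4.53 to 5.06 in intact, 6.52 to 6.76 in castrated and 5.11 to 6.43 in regenerated arrays (1.84 ± 0.32 log2 after castration, limma adjusted p = 0.00697). A second, dimmer row of Tnfrsf19 gave -0.15 (limma adjusted p = 0.504), so its rows disagree. Sox9, a transcription factor of epithelial progenitors, rose by 1.45 ± 0.28 (limma adjusted p = 0.0102), a call that ended without intact replicate 1 (limma adjusted p = 0.0589) or 2 (0.0531). The other 9 measured genes of the list, among them Myc, Nkd1, Notum, Sp5 and Ascl2, were not called. Of the 15 genes, 6 lay at or under the 95th percentile of the background rows in all castrated arrays, Notum, Sp5 and Ascl2 among them.

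**Figure D3:**
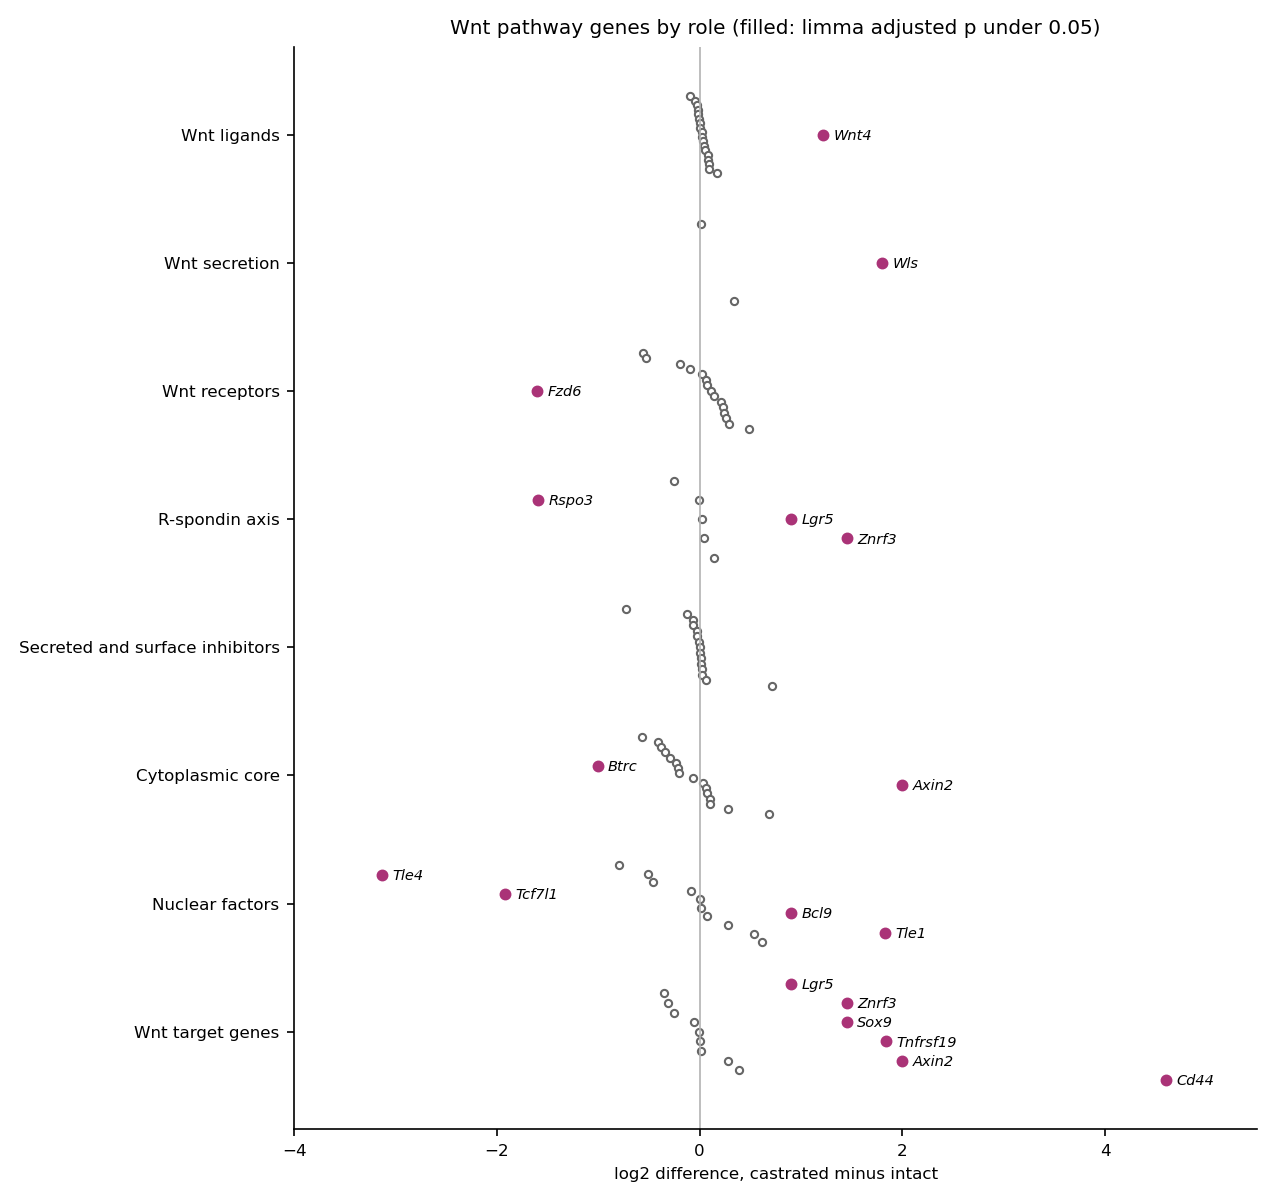
Log2 difference between castrated and intact arrays (horizontal axis) of each measured Wnt pathway gene, by role (vertical axis). Filled and named points passed a limma adjusted p of 0.05, open points did not, and a gene on 2 lists is drawn on both. Apart from Wnt4 the ligands lie near 0, and Tle4 and Cd44 lie farthest out.

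Some arrays showed several of these genes together. Regenerated replicate 4 had the highest value of the regenerated arrays for Axin2 (7.46), Znrf3 (9.98), Wls (10.36), Tle1 (9.74) and Cd44 (8.45), and the lowest for Lgr4 (6.08), Tle4 (9.51) and Tcf7l1 (5.79). Nkd1, a further feedback target that was not called, was 8.49 in it and 6.83 in regenerated replicate 2, against 5.42 to 6.08 in the other 8 arrays. Wnt4 did not follow this order, since regenerated replicate 4 held its lowest value of that group, 6.33. Nkd1 was picked out here after its values were seen, although it is also named by rule in the regenerated comparisons.

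Some markers of other cells moved with the castrated state as well, where 4.82% of all genes were called higher and 3.19% lower. Of 6 urothelial markers 2 were called higher, Upk1b by 5.55 ± 0.58 and Upk3a by 5.07 ± 0.63 log2. Upk1a, the brightest of the 6, was not called (0.25 log2, limma adjusted p = 0.813). Its means were 17.49, 17.74 and 17.65 in intact, castrated and regenerated arrays. Upk3b and Krt20 had means of 4.26 or less in every group. The summed level of the list mainly follows Upk1a. It was 17.34 to 17.81 log2 in intact, 17.59 to 18.45 in castrated and 16.85 to 18.50 in regenerated arrays. Of 8 measured markers of proximal luminal cells 2 were higher and 2 lower, with Clu at 3.07 ± 0.44, Ly6d at 2.73 ± 0.37 and Psca at -2.82 ± 0.42. Their summed level, in which Clu was the brightest gene, was 12.57 to 12.93, 14.18 to 15.57 and 13.40 to 14.72 in the same order. Of 10 basal markers Krt17 and Krt14 were higher, by 1.31 ± 0.16 and 0.52 ± 0.14. The summed level of the list was 10.39 to 10.51, 10.80 to 11.75 and 11.59 to 14.05. It mainly follows Krt15, a gene outside the naming rule that was not called after castration (limma adjusted p = 0.317). Krt15 had means of 9.95, 11.14 and 12.48 in the same order. Krt14 lost its call with any intact or castrated array left out or without regenerated replicate 1 (limma adjusted p from 0.0628 to 0.175), and after a second quantile normalisation (0.135) or median centring (0.119). The basal factor Trp63 was at 3.97, 3.98 and 4.18, near background. None of 6 seminal vesicle markers was called by limma in any comparison, but their level varied widely between arrays. Their mean was 6.90 to 9.88 log2 in intact, 6.36 to 6.54 in castrated and 4.47 to 10.26 in regenerated arrays. The lowest of these came from regenerated replicate 3 and the highest from regenerated replicate 4. The part of such cells in the changes of the members was not tested.

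Of 11 measured markers of lymphocytes, cells that use Tcf and Lef factors, 0 were called by limma after castration. An unadjusted limma p under 0.05 was found there for 1 of them and for 6236 of all 30142 genes. Ptprc, the gene of CD45, had means of 3.64, 3.63 and 3.601, and Cd3d of 4.13, 4.03 and 4.11. Cd3e stood apart from them at 7.05 ± 1.46 (SD, n = 3), 10.45 ± 1.91 (n = 3) and 6.40 ± 0.74 (n = 4). Its difference after castration was 3.39 ± 0.93 log2 (limma adjusted p = 0.0507). After testosterone Cd3e was called lower, by 4.04 ± 0.87 (-4.04, limma adjusted p = 0.0253). That call ended without castrated replicate 1 or 2 or regenerated replicate 2 or 3 (limma adjusted p from 0.0674 to 0.103). The summed level of the list, which follows Cd3e, was 7.58 to 8.79, 8.87 to 11.82 and 7.59 to 8.28. Of 10 myeloid markers Cd14 was higher by 1.95 ± 0.35 and Itgam by 0.38 ± 0.08, and the other 8 were not called. The summed level of the list was 8.82 to 9.88, 9.84 to 10.58 and 9.52 to 11.67. It mainly follows Cd68 and Ly6c2, genes outside the naming rule that were not called. Their means were 8.27, 8.92 and 8.43 for Cd68 and 7.45, 8.23 and 10.43 for Ly6c2. Itgam lay under the upper percentile of the background rows, as used above, in every array. Its castrated values were 4.26, 4.42 and 4.19, against background percentiles of 4.95, 4.63 and 4.58. Itgam lost its call without intact replicate 1 (limma adjusted p = 0.0848) or 2 (0.0755) or castrated replicate 2 (0.0667), and after median centring (0.0691). None of 7 endothelial and 4 neuroendocrine markers was called by limma in any comparison, and after castration 0 and 1 of them had an unadjusted p under 0.05.

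**Figure D4:**
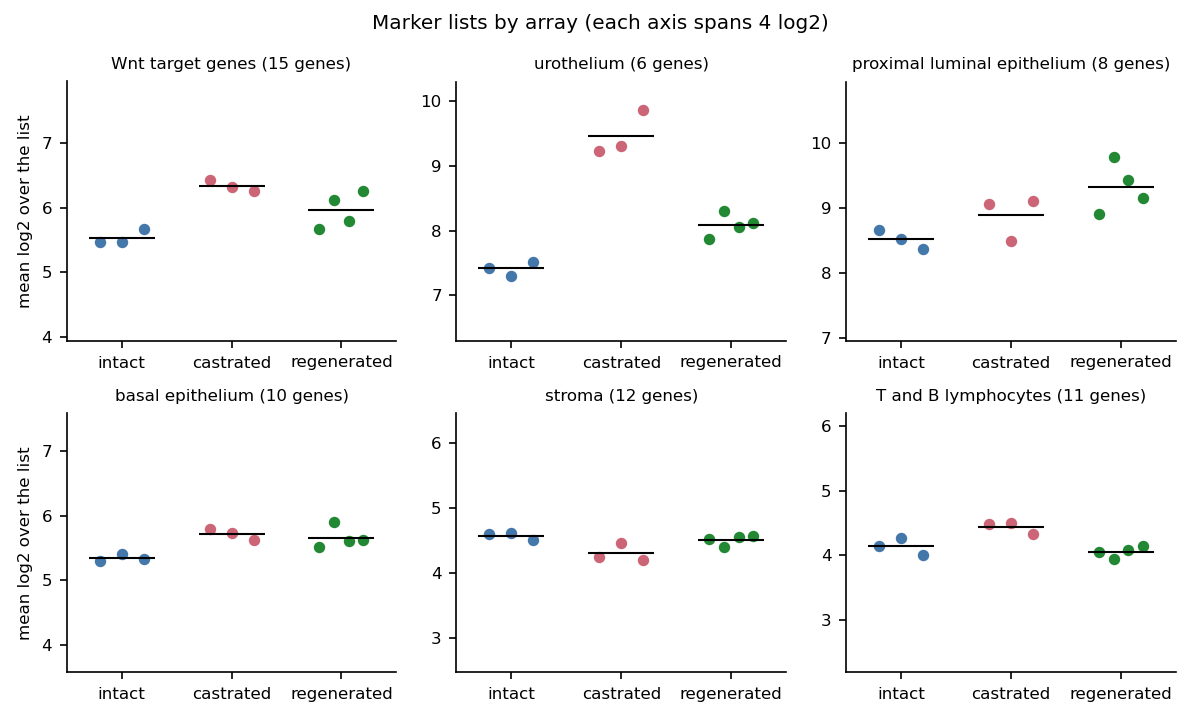
Mean log2 level over each list (vertical axis, each panel spanning 4 log2) in each array, for Wnt target genes and for markers of 5 cell types. Points are arrays and black lines group means. Castrated points lie above all intact points for the target (6.26 to 6.43), urothelial (9.22 to 9.85), basal (5.62 to 5.80) and lymphocyte lists (4.34 to 4.50). They lie under all intact points for the stromal list (4.21 to 4.46) and overlap them for the proximal luminal list.

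The genes with the most similar profile to each called member were found among 19746 named candidates, by the root mean square difference of array values after each gene was centred on its mean over the 10 arrays. Closest to Axin2 were Myadm (0.17 log2), Tnfrsf19 (0.20) and Tle1 (0.21), where Axin2 itself had an SD of 0.93 over the arrays. Myadm, for example, had means of 5.71 in intact, 8.002 in castrated and 6.93 in regenerated arrays. Closest to Wnt4 (SD 0.54) were Pih1d1 (0.11), Capg (0.12) and Sowaha (0.13), and to Znrf3 (SD 0.74) Tnik (0.19), Cacnb2 (0.22) and Midn (0.24). For Lgr5 (SD 0.45) they were Prpf38a (0.11), Tnfrsf4 (0.12) and Pdcd10 (0.12), of which Prpf38a and Pdcd10 lay far above background, with castrated means of 10.40 and 10.60. These are descriptions over arrays in 3 separated groups, so many genes that follow the groups come close.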

How the data were processed

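RNA of 10 sorted samples was hybridised to Affymetrix ClariomD arrays. The submitters' processing notes name RMA and Affymetrix Expression Console, from which the authors deposited log2 values for 72688 rows. Their versions and the genome build are not given in the sources used here. Because RMA gives arrays 1 common distribution, a shift shared by all genes would be lost. Array medians were 4.12 to 4.22. Arrays have no sequencing depth, and their number limits the precision.

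Gene names came from the platform's annotation, which can be old, with 827 symbols updated by gene identifier against RefSeq (GRCm38.p6). Of 65956 non-control rows 30604 had 1 symbol, 2146 several and 33206 none listed. The row with the highest mean was used for 355 genes with several rows. Limma 3.58.1 in R 4.3.3 (lmFit, eBayes with a mean-variance trend) fitted all 10 arrays in 1 model with 3 groups and 7 residual degrees of freedom. Tests were two-sided, with Benjamini-Hochberg adjustment over 30142 genes. The scripts were tested on simulated data.

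The members and lists were chosen with earlier results of these data known. Named are all members, up to 4 called genes per pathway list (the 2 largest differences where none was called), up to 3 called genes per marker list with fixed markers, and the 3 nearest profiles. Genes outside the rule are said to be so. Alternatives were a replicate block, a constant prior, a fit of only the 2 groups compared, dim genes left out, a second quantile normalisation, median centring, array weights, the second row of a gene and each array left out.

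Replicate numbers are shared between groups, but deviations from group means correlated from -0.16 to 0.26 between same-numbered arrays, so they were not taken as pairs.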

Additional observations from a re-analysis of the deposited data

How the results depend on the processing

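After castration Axin2, Wnt4 and Lgr5 kept their call under every alternative listed, and Znrf3 lost it when only the 2 groups were fitted (limma adjusted p = 0.0536), with median centring (0.0572) and without the arrays named in the report. Genes called numbered 4258 with array weights, against 2414, and 1019 to 3271 with 1 array left out. Low counts came without intact replicate 1 (1019), intact replicate 2 (1200) and castrated replicate 2 (1473). Regenerated against castrated arrays gave 822 genes when only those 2 groups were fitted, against 1500, and 816 to 2127 with 1 array left out. The low counts there were 816 without castrated replicate 2, 871 without regenerated replicate 2 and 934 without regenerated replicate 3. In that comparison 1 member was called, but 2 with a constant prior, 2 with dim genes left out, 3 with array weights and 1 to 2 with 1 array left out. Regenerated against intact arrays gave 11 genes, 4 with the replicate block, 2 with a constant prior, 26 with dim genes left out, 1 after a second quantile normalisation, 3 after median centring, 70 with array weights and 0 when only those groups were fitted (limma, 2859 at an unadjusted p under 0.05). With 1 array left out it gave 0 to 78 (limma, at least 1803 at an unadjusted p under 0.05 where none was called). No member was called there under any of these. The cause of these changes was not tested.

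Values that changed sign were small ones that were never called, apart from the second row of Tnfrsf19 (-0.15). After castration Lef1 was -0.0199 after a second quantile normalisation and -0.0919 after median centring, and Wnt10a was -0.0371 after median centring. With 1 array left out Lef1 ran from -0.0171 to 0.0188, Wnt5a from -0.0769 to 0.0205, Wnt7b from -0.10 to 0.0072 and Wnt10a from -0.0029 to 0.0869. Regenerated minus intact, Wnt7b was -0.0042 after median centring and ran from -0.0045 to 0.10 with 1 array left out, and Lgr5 ran from -0.0798 to 0.0300.

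The replicate block gave 2715, 1637 and 4 called genes in the order of the report (858 higher and 779 lower in the second) and the same number of called members (4, 1 and 0). It ended the call of Tpbg after testosterone (limma adjusted p = 0.0618) and no other call of a named gene. Only 2 of 9 arrays correlated best with their own number in another group.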
